A study of Rattus norvegicus with 2 samples.

Results

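The genes described here are 40 rat genes of the NRF2 pathway and of the antioxidant system outside glutathione metabolism. They were listed by symbol, by a rule that holds no measured value but was written with earlier results of these arrays known, and were found on the arrays through the RefSeq transcript accession of each non-control probe. Of the 40, 39 had at least 1 probe that could be named, among 13667 named genes on the array, and these 39 genes had 49 probes. Pgd, the 6-phosphogluconate dehydrogenase of the pentose phosphate pathway, had no probe that could be named. The sex and age of the rats are not stated in these sources.

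The control array carried liver RNA of Sprague Dawley rats dosed with sodium chloride, and the other array liver RNA of Sprague Dawley rats given senecionine (i.g.) at 35 mg/kg. Both sets of livers were taken 36 h after dosing. Senecionine is a pyrrolizidine alkaloid that liver cytochromes P450 turn into reactive pyrroles. For each group 3 tissue samples were combined into 1 pool. The design mentions 2 independent experiments and names control and exposure, which is read here as the 2 arrays. The values below therefore compare 2 pools, with no replicates, and carry no test.

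NRF2, encoded by Nfe2l2, is a transcription factor that KEAP1 holds in the cytosol and sends to degradation. Electrophiles and oxidants modify KEAP1, and NRF2 then pairs with a small MAF protein and binds antioxidant response elements near genes for quinone reductases, thioredoxin reductase, sulfiredoxin and enzymes that make NADPH. Superoxide dismutases turn superoxide into hydrogen peroxide, which catalase and the peroxiredoxins remove, and the thioredoxin system returns oxidised peroxiredoxins to their active form. The liver is rich in these enzymes because its oxidases and cytochromes P450 release peroxide and superoxide.

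Signals are given as relative signal, the background-subtracted spot intensity divided by the 75th percentile of non-control spots on the same array, and a log2 ratio is senecionine minus control. A gene counted as measured if both arrays had a probe of it well above background, and the brightest of these stood for the gene. The scanner software placed 44.4% of control spots and 64.1% of senecionine spots well above background, and the lowest relative signal called well above background was 0.204 and 0.0806. The spot error of a log2 ratio, which the scanner software estimates within an array, was 0.27 for Ephx2, 0.36 for Srxn1 and between 0.20 and 0.23 for the other measured members. Each member probe was spotted once per array. Different probes of 1 gene gave a wider spread than the spot error: over 1377 genes with at least 2 measured probes, the ratios of the 2 brightest differed by a median of 0.40 on the log2 scale, and 21.4% of these genes had the pair on different sides of a 2-fold limit. Of the labelled tissue's defining genes, 6 of 10 hepatocyte markers had a nameable probe and all 6 were measured, with a relative signal of albumin (Alb) of 919.7 and 418.

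Most of the measured members were within 2-fold between the arrays, and a few members differed widely in opposite directions. Catalase (Cat) was 14.9-fold lower after senecionine and the aldehyde reductase Akr7a2 5.88-fold lower, whereas the mitochondrial superoxide dismutase Sod2 was 6.04-fold higher and the aldo-keto reductase Akr1b8 at least 40.1-fold higher. Nfe2l2 itself, Keap1 and the prototype target Nqo1 lay within 0.32 of 0 on the log2 scale. Of 33 measured members, 4 were at least 2-fold higher (12.1%), beside 11.2% of all 7803 measured genes, and 5 were at least 2-fold lower (15.2%), beside 17.7% of all measured genes. Both shares are near the background, and the other 24 members were within 2-fold, as were 71.1% of all measured genes. The counts do not set the group apart from other genes. The median log2 ratio of the members was -0.32, and that of all measured genes -0.14. Scaling to the array medians, which moved the median of all measured genes from -0.14 to -0.26, gave 2 higher and 9 lower members. Several members lay near the 2-fold limit: Srxn1 (1.05), Txnrd1 (1.12) and Ptgr1 (-1.04) just past it, and Osgin1 (-0.98), Akr7a3 (-0.97), Txn2 (-0.96) and Aox1 (-0.92) just within it.

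**Figure D1:**
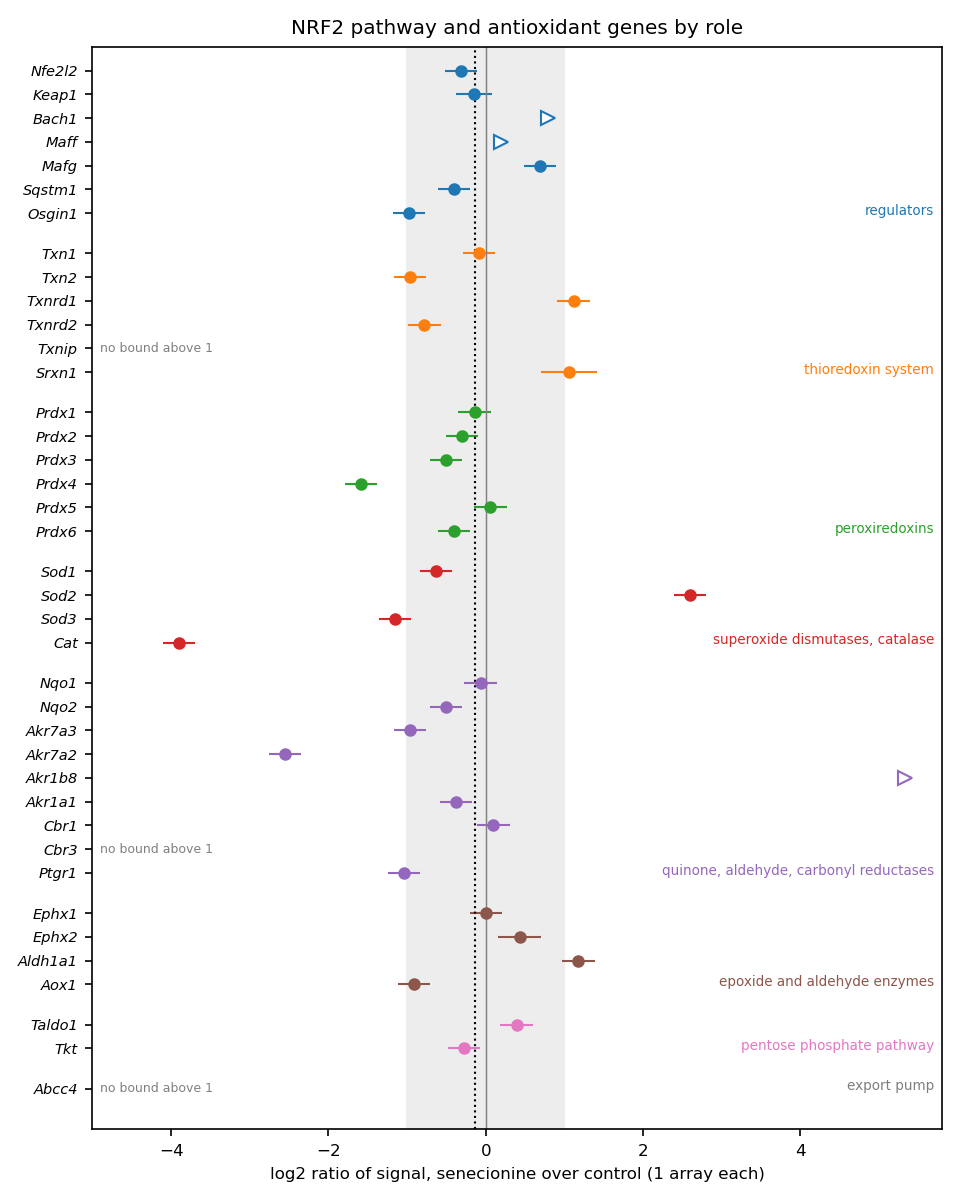
Log2 ratio of signal, senecionine over control, for the members by role, with 1 array per group. Filled points are genes measured on both arrays with their spot error, open triangles are lower bounds for genes detected after senecionine only, the grey band spans 2-fold in either direction and the dotted line marks the median of all measured genes (-0.14). Cat and Akr7a2 stand apart on the lower side and Sod2 and Akr1b8 on the higher side, while 24 of the 33 measured members lie inside the band.

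**Figure D2:**
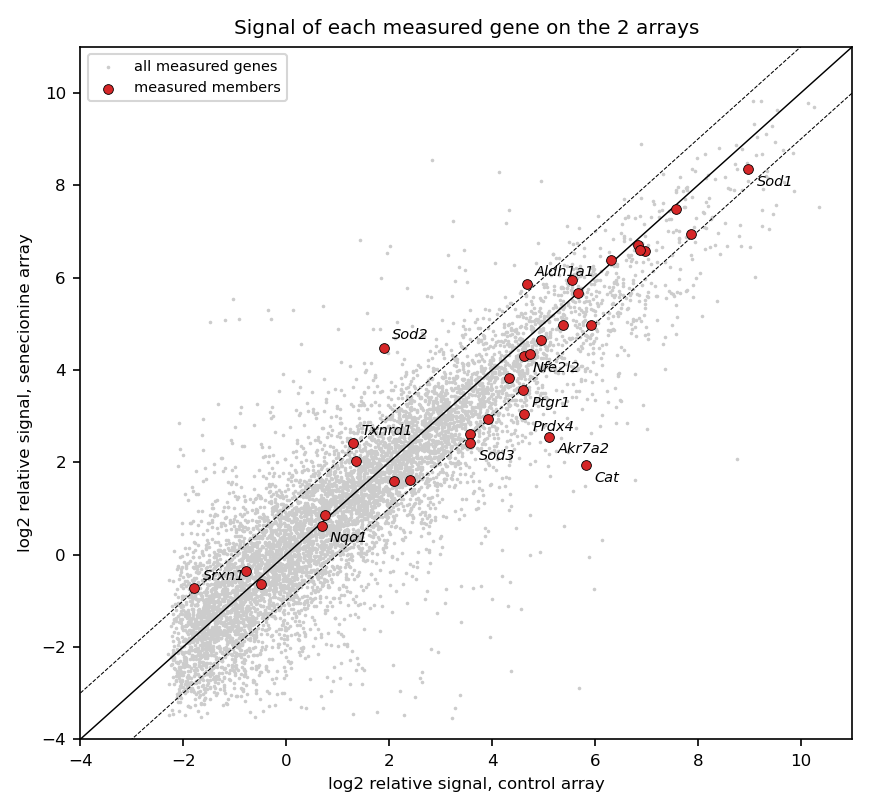
Log2 relative signal of control (horizontal) and of senecionine (vertical) for the 7803 measured genes in grey and the 33 measured members in red. The solid line marks equal signal and the dashed lines 2-fold differences. Cat, Akr7a2, Prdx4, Sod3 and Ptgr1 lie below the lower dashed line and Sod2, Aldh1a1, Txnrd1 and Srxn1 above the upper one.

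The 250 bases before the gene start were read for the 35 members with an entry in the RefSeq promoter table (build GRCr8), since the pathway acts through short DNA elements there. Searched on both strands were TGACNNNGC, the core of the antioxidant response element, and TGAGTCA, the element of AP-1 factors. The motifs can overlap, because TGACTCAGC read on the other strand holds TGAGTCA. TGACNNNGC occurred in 4 of the 35 members (11.4%) and in 10.1% of all 33469 windows of this length. TGAGTCA occurred in 4 members (11.4%) and in 4.05% of all windows. The letters are a description of these windows and not a measured site. Elements farther from the start were not searched. Shown are the 3 windows with a match that belong to members at least 2-fold higher after senecionine, Srxn1, Txnrd1 and Sod2, and the windows of Prdx1 and Ephx1, which hold the full TGACTCAGC and belong to genes within 2-fold. Each runs 5′ to 3′ on the gene's strand, with the letters matched on either strand in capitals.
Srxn1, chr3:161064562-161064811, plus strand: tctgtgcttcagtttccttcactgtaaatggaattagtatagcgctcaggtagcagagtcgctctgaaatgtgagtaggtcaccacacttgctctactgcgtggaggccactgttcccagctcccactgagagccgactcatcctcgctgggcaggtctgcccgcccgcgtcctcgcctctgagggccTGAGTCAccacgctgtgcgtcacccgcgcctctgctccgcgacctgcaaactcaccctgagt
Txnrd1, chr7:22755905-22756154, minus strand: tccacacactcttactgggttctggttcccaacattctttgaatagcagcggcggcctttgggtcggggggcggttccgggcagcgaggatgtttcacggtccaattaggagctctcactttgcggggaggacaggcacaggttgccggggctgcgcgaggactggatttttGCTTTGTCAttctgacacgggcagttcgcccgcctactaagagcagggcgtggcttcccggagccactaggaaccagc
Sod2, chr1:50050169-50050418, minus strand: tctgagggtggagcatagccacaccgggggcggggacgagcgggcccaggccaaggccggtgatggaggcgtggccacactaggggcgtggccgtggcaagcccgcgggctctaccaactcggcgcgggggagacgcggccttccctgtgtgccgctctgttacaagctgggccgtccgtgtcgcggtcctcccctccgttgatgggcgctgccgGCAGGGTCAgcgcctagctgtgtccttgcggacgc
Prdx1, chr5:135383656-135383905, plus strand: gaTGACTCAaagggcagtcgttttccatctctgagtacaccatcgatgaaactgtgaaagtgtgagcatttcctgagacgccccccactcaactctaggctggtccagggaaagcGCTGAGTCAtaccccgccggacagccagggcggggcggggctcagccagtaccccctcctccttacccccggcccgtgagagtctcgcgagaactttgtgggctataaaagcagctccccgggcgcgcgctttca
Ephx1, chr13:95263118-95263367, minus strand: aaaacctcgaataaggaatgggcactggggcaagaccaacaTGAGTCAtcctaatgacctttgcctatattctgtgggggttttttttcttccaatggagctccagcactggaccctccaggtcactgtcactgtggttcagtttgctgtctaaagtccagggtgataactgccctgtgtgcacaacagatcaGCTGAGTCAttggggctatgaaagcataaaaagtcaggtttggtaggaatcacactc

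In Srxn1 the match is TGAGTCA, starting 62 bases before the gene start. In Txnrd1 and Sod2 it is TGACNNNGC on the opposite strand, as TGACAAAGC with its first letter in the window 78 bases and as TGACCCTGC 35 bases before the start. Prdx1 and Ephx1 hold TGACTCAGC on the opposite strand, 135 and 57 bases before the start, overlapping a TGAGTCA, and each holds a further TGAGTCA. Txnrd1 and Ephx1 each have a second annotated start whose window holds neither motif. Aox1 was the remaining member with a match, a TGAGTCA 234 bases before its start. Among the 6 measured members with either motif, 3 lay above the 2-fold limit and 0 below it. Taken by motif, 2 of 4 with TGACNNNGC and 1 of 4 with TGAGTCA were higher. Of the 23 measured members whose windows hold neither, 1 was higher, Aldh1a1, and 3 were lower. The lower members Sod3 and Ptgr1 had no window and are in none of these counts. Of the higher members with a motif, Txnrd1 and Srxn1 fell just inside the limit with scaling to the median (0.99 and 0.93). Srxn1 fell further, to 0.48, with normexp correction, and the second measured probe of Txnrd1 gave 0.45. The same counts were not made over all measured genes with these motifs, so no background share stands beside them. The counts given describe the windows and were not tested.

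The regulators of the pathway stayed within 2-fold wherever both arrays gave a signal. The transcript of NRF2, Nfe2l2, had a relative signal of 24.8 in control and 19.9 after senecionine (log2 ratio -0.32 ± 0.20). Its inhibitor Keap1 had 0.711 and 0.64 (-0.15 ± 0.23). Both differences are within 2 spot errors, and that of Nfe2l2 turned to 0.06 with normexp background correction. Mafg, a small MAF partner of NRF2, had 2.55 in control and 4.10 after senecionine (0.69 ± 0.21), and its second probe gave a ratio of 0.27. The autophagy adaptor Sqstm1, which binds KEAP1, had 126 and 95.4 (-0.40 ± 0.20), with ratios of -0.23 to -0.11 on its 3 other probes. Osgin1, an NRF2 target and growth inhibitor, had 15.2 and 7.68 (-0.98 ± 0.20), and it passed the 2-fold limit only when arrays were scaled to their medians (-1.11).

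Bach1, the repressor that competes with NRF2 for the same elements, and Maff, another small MAF gene, passed background after senecionine alone. The relative signal of Bach1 was 0.354 there against 0.0710 on the control array, a bound of at least 1.73-fold higher, and its other probe was likewise detected on the senecionine array only. That of Maff was 0.233 against 0.0432, at least 1.14-fold higher. Detection on the senecionine array only was common, at 19.1% of all named genes, and 6 of the 39 members with a probe fell there. Of all such genes 12.2% had a bound of at least 2-fold, and of the 6 members 1 did, Akr1b8.

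Within the thioredoxin system, 2 cytosolic enzymes were higher and the mitochondrial branch was lower by less than 2-fold. Txnrd1, the cytosolic thioredoxin reductase, had a relative signal of 2.45 in control and 5.31 after senecionine, 2.17-fold higher (1.12 ± 0.21). Its second measured probe gave a ratio of 0.45, inside the 2-fold limit, so the probes do not give 1 size. Srxn1, which repairs over-oxidised peroxiredoxins, had 0.29 and 0.602 and was 2.08-fold higher (1.05 ± 0.36), near the dim end of the control array, and its ratio was 0.48 with normexp correction. Thioredoxin itself, Txn1, had 190 in control and 179 after senecionine (-0.09 ± 0.20), a difference within its spot error that turned positive under 4 of 5 other scalings and background settings, by up to 0.47 with quantile normalization. The mitochondrial thioredoxin Txn2 had 11.9 and 6.09 (-0.96 ± 0.20). Its reductase Txnrd2 had 5.29 and 3.08 (-0.78 ± 0.20), on the lower side under all 5 other scalings and background settings, as was Txn2. Txnip, the inhibitor of thioredoxin, was detected on the senecionine array only, at 0.178 against 0.170, which gives no bound above 1.

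Of the peroxiredoxins, the thiol peroxidases of hydrogen peroxide, Prdx4 was lower and the other 5 stayed within 2-fold. Prdx4, the secretory pathway enzyme of the family, had a relative signal of 24.6 in control and 8.23 after senecionine, 2.995-fold lower (-1.58 ± 0.20), and between -1.71 and -1.36 under the other scalings and background settings. The cytosolic Prdx1 had 115 and 104 (-0.14), and Prdx2, abundant in red cells, 31.0 and 25.2 (-0.30). The mitochondrial Prdx3 had 20.1 and 14.1 (-0.51). Prdx5 and Prdx6, which act in several compartments and in the cytosol, had 79.5 and 82.9 (0.06) and 41.6 and 31.5 (-0.40). The signs of Prdx1, Prdx2 and Prdx5 were not kept under every scaling.

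The ratios of the enzymes that act on superoxide and hydrogen peroxide ran from -3.89 to 2.59 on the log2 scale. Catalase, the peroxisomal enzyme that splits hydrogen peroxide, had a relative signal of 56.9 in control and 3.82 after senecionine (-3.89 ± 0.20). Only 0.577% of all measured genes had a lower ratio, and its ratio lay between -4.02 and -3.53 under the other scalings and background settings. Sod2, the manganese superoxide dismutase of mitochondria, had 3.71 and 22.4, 6.04-fold higher (2.59 ± 0.20), with 98.7% of measured genes below it. Sod3, the extracellular superoxide dismutase, had 11.9 and 5.35, 2.23-fold lower (-1.16 ± 0.20), but -0.74 with normexp correction. Sod1, the copper and zinc enzyme of the cytosol, had 507 and 327 (-0.63 ± 0.20, other probe -0.57), and no difference was left for it under quantile normalization. The senecionine pool thus had more signal for the mitochondrial enzyme and less for the extracellular one and for catalase.

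Lists of cell type markers were read beside these genes, and they differed between the arrays in both directions. The summed relative signal of the 6 hepatocyte markers with a probe was 3609 in control and 2258 after senecionine. At the 2-fold limit 4 of the 6 were lower and 0 higher, and 1 was lower under quantile normalization or cyclic loess. The neutrophil list summed to 5.94 and 84.7 over its 8 genes with a probe, and most of the latter came from S100a8 (34.1) and S100a9 (33.0). Of its 5 measured genes, 4 were higher and Prtn3 lower by 2-fold or more. Of 3 more that passed background after senecionine only, Csf3r had a bound of at least 3.21-fold higher, Cxcr2 had no bound above 1, and Elane had the lower value after senecionine (0.109 against 0.177). The genes Mpo and Ltf had no nameable probe. Macrophage markers went both ways, with 3 of 11 measured genes at least 2-fold higher and 6 lower, sums of 305 and 294, and Cd163 well above background on neither array. Trem2 and Ccr2 passed background after senecionine only, with bounds of at least 3.37-fold and 1.23-fold higher. Sinusoidal endothelial markers summed to 85.8 and 19.2, with 4 of 5 measured genes lower, none higher, Pecam1 well above background on neither array, and Stab1, Stab2 and Clec4g without a nameable probe. Cdh5 passed background after senecionine only, at least 1.01-fold higher. Both measured bile duct markers were at least 2-fold higher, and Spp1 had a bound of at least 106-fold, with sums of 0.841 and 25.1 over the list. All 3 measured red cell and platelet markers were at least 2-fold higher (sums 8.11 and 33.4). Of 9 measured stellate cell markers 3 were higher and 1 lower (sums 245 and 163), and of 6 lymphocyte markers 2 were higher and 1 lower (sums 5.82 and 7.61). With normexp correction 1 bile duct marker and 0 lymphocyte markers were higher. Markers of brain summed to 116 in control and 5.48 after senecionine, with 10 of 11 measured genes lower. A further 3 were detected in control only, 2 after senecionine only, and Stmn2, Gad1 and Slc17a7 were well above background on neither. Tubb3 had 55.7 in control and 2.79 after senecionine, and Scg5 20.7 and 0.175. The control array, labelled liver, thus carried signal for brain markers, and it is the denominator of every ratio here. Where this signal came from was not tested. For the cell types of liver in pooled tissue, fewer cells of a type and less RNA per cell cannot be told apart. The part of all these markers in the values of Cat, Sod2, Sod3 or any other member was not tested.

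Among reductases of quinones, aldehydes and carbonyls, Akr1b8 had a bound far above 2-fold, and of 7 measured genes 2 lay below the lower 2-fold limit and 0 above the upper one. Akr1b8, an aldo-keto reductase of reactive aldehydes, had a relative signal of 0.0759 in control, which did not pass background, and 8.19 after senecionine. Its bound of at least 40.1-fold higher is the largest fold value among the members. Akr1b7 and Akr1b10 are closely related genes, and whether their transcripts bind this probe was not tested. The probe of Akr1b10 was itself well above background on neither array. Nqo1, the quinone reductase commonly used as a readout of NRF2 activity, had 1.61 and 1.54 (-0.06 ± 0.21), within its spot error. Its relative Nqo2 had 4.29 and 3.01 (-0.51 ± 0.20).

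The aflatoxin aldehyde reductases both had lower signal, by different amounts. Akr7a2 had a relative signal of 34.5 in control and 5.87 after senecionine, 5.88-fold lower (-2.56 ± 0.20), between -2.68 and -2.28 under the other scalings and background settings. Akr7a3, the family member known from induction by antioxidants in rat liver, had 61.0 and 31.2, 1.95-fold lower (-0.97 ± 0.20) and -0.57 with normexp correction. The general aldehyde reductase Akr1a1 had 26.5 and 20.4 (-0.38 ± 0.20). Ptgr1, which reduces double bonds of prostaglandins and reactive alkenals, had 24.3 and 11.8 and was 2.06-fold lower (-1.04 ± 0.20), but fell inside the 2-fold limit under 4 of 5 other scalings and background settings. Cbr1, a carbonyl reductase, had 1.68 and 1.80 (0.10 ± 0.21, other probe 0.61). Cbr3 was detected on the senecionine array only, at 0.145 against 0.0684, with no bound above 1.

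Enzymes of epoxides and aldehydes did not move together. The microsomal epoxide hydrolase Ephx1, which opens reactive epoxides, had a relative signal of 51.2 on both arrays. The soluble epoxide hydrolase Ephx2 had 0.581 and 0.783 (0.43 ± 0.27), within 2 spot errors. Aldh1a1, which oxidises retinal and other aldehydes, had 25.6 in control and 57.9 after senecionine, 2.26-fold higher (1.18 ± 0.20), and was past 2-fold under each of the other scalings and background settings. Aox1, the molybdenum enzyme aldehyde oxidase, had 233 and 123 (-0.92 ± 0.20), and its ratio was -0.39 under quantile normalization. For NADPH supply, the pentose phosphate enzymes Taldo1 and Tkt had 47.0 and 61.7 (0.39 ± 0.20) and 117 and 96.5 (-0.28 ± 0.20), both within 2-fold. Abcc4, an export pump of the basolateral membrane, was detected on the senecionine array only by both of its probes, at 0.171 against 0.0709 on the brighter one, with no bound above 1.

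A list of 67 other genes of redox metabolism was read beside the members. Of these 50 were measured, of which 8 (16%) lay above and 10 (20%) below the 2-fold limits, beside 11.2% and 17.7% of all measured genes. Their median log2 ratio was -0.43. Hmox1, the haem oxygenase that NRF2 and BACH1 both control, had a relative signal of 4.07 and 103 and was 25.3-fold higher. Abcc3, an export pump of conjugates, was 6.54-fold higher (2.71 ± 0.33, but 1.26 with normexp correction), and the transmembrane thioredoxin Tmx1 2.89-fold higher on 1 probe (1.53) with 0.91 on the other. On the lower side were the xylulose reductase Dcxr (4.38-fold), the methionine sulfoxide reductases Msra (3.65-fold) and Msrb2 (2.88-fold), the paraoxonase Pon1 (3.56-fold) and the fatty aldehyde dehydrogenase Aldh3a2 (3.04-fold). Mafk, the third small MAF gene, passed background after senecionine only, with a bound of at least 3.78-fold, and the NADPH oxidase Nox4 passed it in control only, with a bound of at least 4.67-fold lower. Cybb and Ncf1, subunits of the phagocyte NADPH oxidase named after their values were seen, had ratios of 1.34 and 1.03, and 0.87 and 0.47 with normexp correction.

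**Figure D3:**
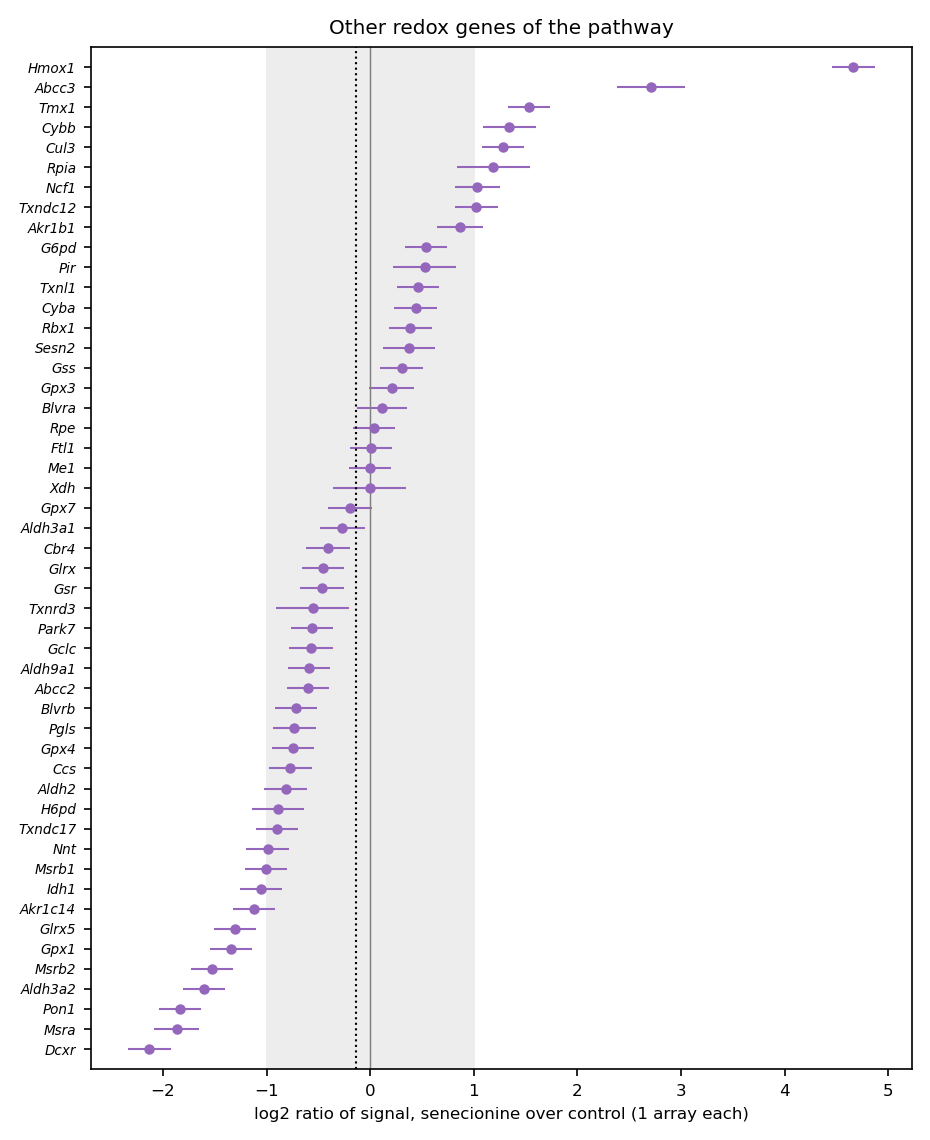
Log2 ratio of signal, senecionine over control, with spot error for the 50 measured genes of the list of other redox genes. The grey band spans 2-fold in either direction and the dotted line marks the median of all measured genes. Hmox1 (4.66) and Abcc3 (2.71) have the highest ratios of the list and Dcxr (-2.13) the lowest.

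Of the 9 members past 2-fold, 5 stayed past it under each of 5 other ways of scaling the arrays or correcting background, and none of the 9 changed sign. The 5 were Sod2, Aldh1a1, Prdx4, Akr7a2 and Cat, each measured by 1 probe, which rescaling cannot check. Of the 9, only Txnrd1 had a further measured probe, and it lay inside 2-fold (0.45). Txnrd1 fell to 0.99 with scaling to the median, Srxn1 to 0.93 with that scaling, Sod3 to -0.74 with normexp correction, and Ptgr1 as given above. Of all 33 measured members, 23 kept the sign of their ratio in all of these settings. The 10 that did not were Nfe2l2, Txn1, Prdx1, Prdx2, Prdx5, Sod1, Nqo1, Cbr1, Ephx1 and Tkt, all within 2-fold. Scaling to the median put Osgin1, Txn2 (-1.09), Akr7a3 (-1.09) and Aox1 (-1.04) past the lower limit. The authors' deposited table, a list of probes with log2 differences of at least 1.00, holds probes of 12 members, 8 higher and 4 lower after senecionine. Cat is listed there with a difference of -3.74, Akr7a2 with -2.39, Sod2 with 2.79, Akr1b8 with 6.71, Maff with 3.36 and Bach1 with 2.11. For Akr1b8, Maff and Bach1 the authors' deposited table sets a control value that was not well above background here.

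**Figure D4:**
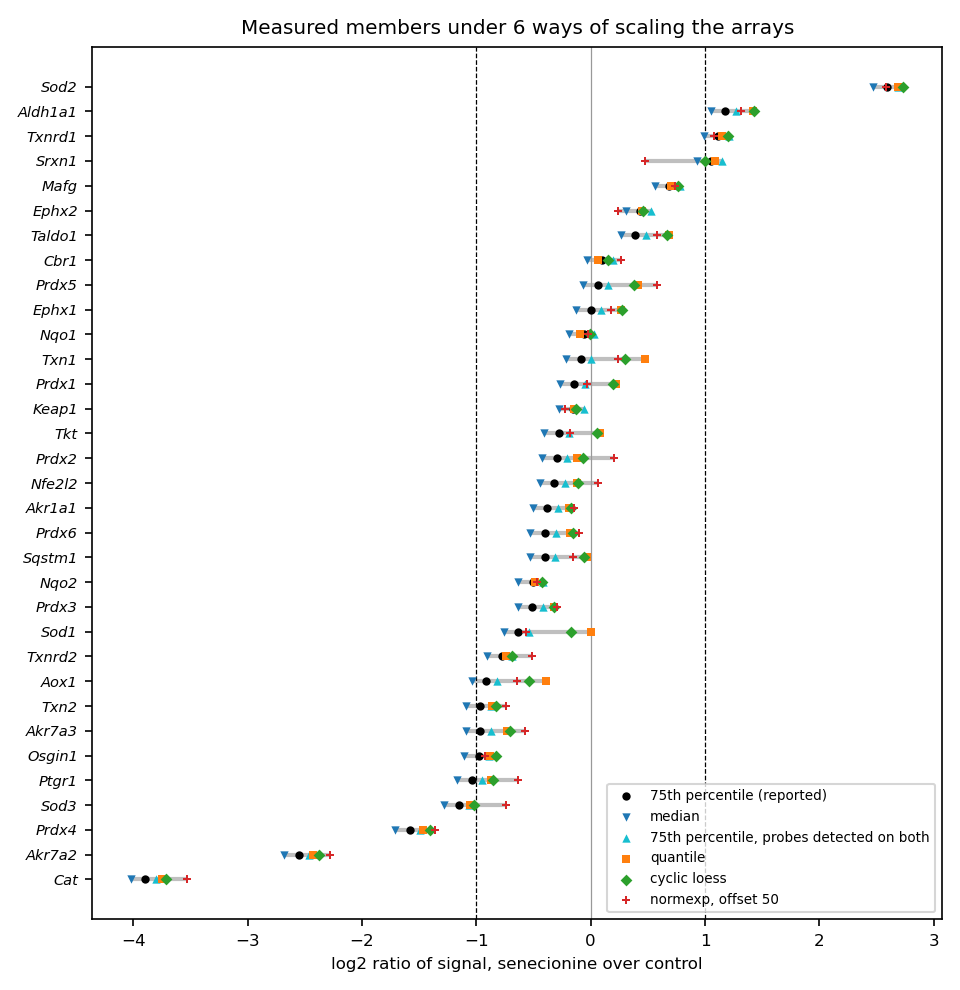
Log2 ratio of signal, senecionine over control, of the 33 measured members under the reported scaling (black circles) and 5 other ways of scaling or background correction, 1 marker each, with dashed lines at 2-fold. The markers of Cat, Akr7a2, Prdx4, Aldh1a1 and Sod2 all lie outside the dashed lines, and those of Ptgr1, Sod3, Srxn1 and Txnrd1 cross them. Those of Osgin1, Txn2, Akr7a3 and Aox1, within 2-fold under the reported scaling, cross the lower line with scaling to the median.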

How the data were processed

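Liver RNA was measured on 2 one-colour (Cy3) arrays, 1 pool per group, grouped by the sample titles. Per the file headers and the submitters' processing notes, Agilent Feature Extraction 10.7.3.1 produced the intensity values, with background subtraction and spatial detrending within each array. The authors' deposited table holds log2 values whose scaling between arrays stays unknown. All 7355 of its probes compared here differ in the same direction as the scanner values. Its column medians are 6.03 for control and 6.10 for senecionine.

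For this account log2 of the processed signal minus each array's 75th percentile was used. Control spots and spots with an outlier flag (522 and 497) were left out, spots of 1 probe were averaged, and 17250 of 40516 probes were named through unversioned RefSeq accessions (assembly GRCr8). A probe counted as well above background where no fewer of its spots passed than failed. Genes were counted at 2-fold, with no test, and the errors printed with ± are spot errors. The number of arrays limits the precision. Bounds divide the bright signal by the dim array's detection floor (its lowest well-above-background signal), or by the dim probe's signal where that is higher. Every member is named. Of other redox genes, the 8 largest ratios and bounds past 2-fold are. The members and lists were chosen with earlier results of these data known. The planned normexp correction (offset 50) used median spot signals. The counting was tested on simulated data. Normalization alternatives used limma 3.58.1 in R 4.3.3, and the rest Python 3.11.15 with pandas 2.3.3 and numpy 2.4.6. Figures were drawn with matplotlib 3.10.9.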

Additional observations from a re-analysis of the deposited data

How the results depend on the processing

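With 1 array per group no array could be left out. For the same reason no paired analysis was possible, and the labels carry no replicate numbers. Members at least 2-fold higher numbered 4, but 2 with scaling to the median, 9 when detection on 1 array sufficed, 9 with the median over all probes, 8 with the authors' values and 1 at a 4-fold limit. Members at least 2-fold lower numbered 5, but 9 with scaling to the median, 3 with normexp correction, 11 at 1.5-fold and 2 at 4-fold. The members' median of -0.32 became -0.11 with cyclic loess and 1.27 with the authors' values, which hold only probes past 2-fold. All measured genes at least 2-fold higher numbered 876, but 2389 when detection on 1 array sufficed, 2352 with the median over all probes, 2032 with the authors' values, 1642 at 1.5-fold and 213 at 4-fold. Those lower numbered 1379, but 761 with normexp correction, 2947 with the median over all probes, 2424 at 1.5-fold and 361 at 4-fold. Among genes past 2-fold, 38.8% were higher, and 60.5% when detection on 1 array sufficed. Other redox genes higher numbered 8, but 5 with normexp correction and 2 at 4-fold, and those lower 10, but 6 with quantile normalization, 6 with cyclic loess, 20 at 1.5-fold and 1 at 4-fold. Of 305 values of single members under the alternatives, 253 moved by less than the spot error, 52 by more, and none past 2-fold changed sign. Beyond the other fold limits, detection rules and the selected deposited table, the cause was not tested. Signal over background limits the 6 members detected on the senecionine array only.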

Other observations

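Because catalase had the lowest ratio of the measured members, genes for peroxisomal enzymes and for the import machinery of this organelle were listed after the values were seen. None of 41 measured genes of the list was at least 2-fold higher and 25 were at least 2-fold lower (61.0%), beside 17.7% of all measured genes, and the median log2 ratio was -1.10. The counts of lower genes were 17 to 28 under the 5 other scalings and background settings, with none higher in any. Hacl1, which shortens branched and hydroxylated fatty acids, had a ratio of -3.88, the thiolase Acaa1b -2.79, the oxidases Hao2 and Dao -2.47 and -2.42, the bifunctional enzyme Ehhadh -2.28 and the phytanoyl hydroxylase Phyh -2.23. Not all peroxisomal oxidases shared this, since Hao1 had a ratio of 0.11 and the urate oxidase Uox -0.38. Among genes of the import and division machinery, Pex14 had -1.47, Pex11a -1.13 and Pex16 -1.12, while Pex2 and Pex7 had 0.08 and -0.02. The 6 measured hepatocyte markers had a median of -1.07, and their part in these values was not tested.

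All named genes whose symbol begins with Akr were then read, since Akr1b8 and Akr7a2 lay at opposite ends of the members. Of 19 such genes 17 were measured, 11 were at least 2-fold lower (64.7%) and 1 higher (5.88%), beside 17.7% and 11.2% of all measured genes, with a median log2 ratio of -1.16. The 11 include Akr7a2, which prompted the list, and Akr1d1 (-1.04), whose other probe gave 0.57. The lower ones were 8 to 12 under the other scalings and background settings. The 1 higher gene was Akr1b7, closely related to Akr1b8, with a ratio of 3.42. Akr1b1, the aldose reductase of the same branch, had 0.87, and Akr1b10 was well above background on neither array. The lowest were Akr1c1 (-4.87), Akr1c2 (-3.85) and Akr1c15 (-3.37), steroid and aldehyde reductases of the Akr1c branch. In the same branch Akr1c13 (0.22) and Akr1c19 (0.81) lay on the higher side, within 2-fold. The genes of this branch are close relatives, and whether their probes bind each other's transcripts was not tested.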
